A study of Mus musculus with 28 samples.

Results

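The genes described here belong to families of splicing factors and DEAD-box RNA helicases: 65 of the 8726 genes named on the arrays used. Not every member of these families acts in splicing. They were taken by platform symbol: heterogeneous nuclear ribonucleoprotein (hnRNP) genes, SR protein genes (Srsf), subunits of splicing factors 3a and 3b (Sf3), small nuclear ribonucleoprotein polypeptides (Snrp), pre-mRNA processing factors (Prpf), Sm-like proteins (Lsm) and helicases named Ddx. No cut was made on a measured value of a gene. The arrays were those of designs on which gene names follow brightness, and the genes were chosen with earlier results of these data known. The set held 11 hnRNP, 5 SR, 6 Sf3, 9 Snrp, 9 Prpf, 7 Lsm and 18 Ddx genes. All 65 platform symbols matched a RefSeq gene. Ddx3x had 2 spots per array, which were averaged, and every other gene had 1.

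Midbrain RNA came from male BALB/c mice of 8 weeks that received a subcutaneous injection of 1000000 cells of the murine colon carcinoma line CT-26.WT in 300 µl PBS, or 300 µl of PBS without cells. Brains were taken 18, 72 and 192 h later. Every array carried tumour RNA in one dye and PBS RNA in the other, so a spot gives a log2 ratio of tumour over PBS. The tumour mice and the PBS mice shared strain, sex, age and injected volume, and from the labels it is not known if a replicate stands for 1 mouse or for several. All samples are whole dissected tissue, in which fewer cells of a type and less RNA per cell cannot be told apart.

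Of 28 arrays, the 21 numbered 309 and above were used. On these, the 18 h group has 5 biological replicates, the 72 h group 2 of the 4 in the series and the 192 h group 4. Replicates 1 and 2 were made from polyA RNA, on arrays 309 to 397, and the others from total RNA, on arrays 445 to 567, so RNA kind and array run cannot be told apart. Both channels gave a signal for a median of 58.3% of spots, between 18.1% and 87.7% on single arrays. Array 447, with the PBS sample of 72 h replicate 3 in Cy5, stood apart: its channels had a rank correlation of 0.058 over spots, against 0.611 to 0.983 on the other arrays. Among cell type markers, the general neuronal genes lay between the 51.8 (Syt1) and 91.3 (Snap25) brightness percentiles. Astrocyte genes lay between 62.3 (Slc1a3) and 93.4 (S100b), and the oligodendrocyte genes Mag and Mal at 78.6 and 80.9. GABAergic genes lay between 58.2 and 81.4, cerebellar genes between 44.1 and 78.8, and the serotonergic Slc6a4 at 37.6. Th, the enzyme that defines dopamine neurons, lay at 37.5 and Pitx3, a transcription factor of these neurons, at 76.1. Their other markers Ddc, En1 and Nr4a2 lay at 41.3, 35.6 and 44.2. The 5 microglial markers lay between 27.7 and 39.3, and no endothelial, erythroid or pituitary marker of the lists was on the arrays.

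Introns are removed from pre-mRNA by the spliceosome, which is assembled from small nuclear RNAs and their proteins. Sm proteins and some Lsm proteins form rings around these RNAs. The SF3 complexes bind the branch point with the U2 particle, and Prpf proteins build the tri-snRNP and the catalytic core. SR and hnRNP proteins bind the pre-mRNA itself and steer the choice of exons, and DEAD-box helicases drive rearrangements of RNA and protein in splicing, export, translation and ribosome assembly. Neurons use alternative splicing widely.

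A RefSeq promoter (GRCm38.p6) was found for 57 of the 65 genes, and not for Ddx23, Ddx39a, Ddx6, Hnrnpll, Lsm1, Lsm12, Prpf18 and Snrpd1. For the 8 genes with several promoters the one listed first was taken. The window read ran from 130 bases before the start to 20 after it. The windows were rich in CpG: the ratio of observed to expected CpG had a median of 1.03 for the 57 genes, against 0.6 for 17492 protein-coding genes, and it lay above 0.6 in 98.2% of the windows, against 50%. The median GC content was 62.7%, against 58.7%. A TATA box (TATAAA) was found in 1 of 57 windows (1.75%), against 7.68% of all. The CCAAT box (CCAAT) was in 22 windows (38.6%), against 26.8%, and the GC box (GGGCGG) in 34 (59.6%), against 39.2%. The ETS core (CCGGAAG) was in 13 (22.8%), against 8.87%, the NRF1 site (GCGC, then any base, then TGCGC) in 9 (15.8%), against 4.98%, and the YY1 site (AAGATG followed directly by GCGGC) in 0, against 0.269%. Both strands were searched, and motifs may overlap. These are matches of letters in this window and carry no test.

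The windows of the gene with the brightest spot in each family follow as examples. Capitals mark the motifs, and the strand is that of the gene. Hnrnpu has 3 GC boxes and Sf3b1 has 2. Srsf1 has a CCAAT and a GC box, Lsm6 has 1 and Prpf8 has 2 CCAAT boxes, and Snrpc has an ETS core. Ddx39b has an ETS core and an NRF1 site.
Hnrnpu (chr1:178337796-178337945, minus strand): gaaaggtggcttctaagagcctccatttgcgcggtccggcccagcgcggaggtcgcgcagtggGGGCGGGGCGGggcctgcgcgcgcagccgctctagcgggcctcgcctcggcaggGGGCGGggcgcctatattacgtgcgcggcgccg
Srsf1 (chr11:88047243-88047392, plus strand): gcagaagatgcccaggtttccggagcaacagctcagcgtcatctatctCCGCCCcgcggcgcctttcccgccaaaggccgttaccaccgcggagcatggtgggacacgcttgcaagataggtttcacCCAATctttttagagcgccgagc
Sf3b1 (chr1:55027459-55027608, minus strand): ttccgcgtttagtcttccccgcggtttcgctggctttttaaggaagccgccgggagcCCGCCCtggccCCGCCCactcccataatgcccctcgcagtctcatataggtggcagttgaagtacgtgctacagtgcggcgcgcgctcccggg
Snrpc (chr17:27839957-27840106, plus strand): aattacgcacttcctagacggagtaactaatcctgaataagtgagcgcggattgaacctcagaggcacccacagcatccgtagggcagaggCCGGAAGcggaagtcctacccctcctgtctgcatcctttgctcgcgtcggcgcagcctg
Prpf8 (chr11:75486647-75486796, plus strand): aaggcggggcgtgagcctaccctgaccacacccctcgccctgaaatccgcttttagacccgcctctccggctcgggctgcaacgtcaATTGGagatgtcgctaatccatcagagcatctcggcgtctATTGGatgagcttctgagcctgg
Lsm6 (chr8:78821133-78821282, minus strand): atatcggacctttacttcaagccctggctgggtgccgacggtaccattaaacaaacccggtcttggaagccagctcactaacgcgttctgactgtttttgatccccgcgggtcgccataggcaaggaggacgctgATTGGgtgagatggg
Ddx39b (chr17:35241616-35241765, plus strand): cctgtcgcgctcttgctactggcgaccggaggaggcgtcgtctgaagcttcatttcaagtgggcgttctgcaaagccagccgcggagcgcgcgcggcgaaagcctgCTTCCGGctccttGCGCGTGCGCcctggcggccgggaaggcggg

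Spot brightness in the PBS channels was described first, as a percentile among the named probes with a signal on the same channel. Brightness depends on the printed probe as well as on the transcript, so it does not order genes by transcript number. The 65 genes had a mean percentile of 56.8, against 45.6 for all 8997 named probes (under 50, since dim probes give a signal on fewer arrays), 55.8 for 60 probes of other splicing genes and 80.0 for 37 probes of ribosomal protein genes. In single replicates the mean of the 65 genes ran from 50.1 to 64.0, against 41.4 to 48.8 for all probes. Above the 50th percentile lay 39 of the 65 genes (60%), against 34.4% of all probes, and above the 75th lay 13 (20%), against 7.50%. No test was made of this. The arrays are those of designs on which gene names follow brightness, and the genes were chosen with earlier results known. The brightness of the set is therefore not independent of these choices.

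The families differed in brightness. The hnRNP genes were the brightest, with a mean percentile of 72.3, followed by Snrp at 63.2, Lsm at 61.5, SR at 55.9, Sf3 at 52.3, Ddx at 49.0 and Prpf at 46.5. The SDs of these means over the 11 replicates were 9.80 for hnRNP, 10.8 for Snrp, 4.8 for Lsm, 11.9 for SR, 5.99 for Sf3, 4.94 for Ddx and 6.18 for Prpf. Each pair of neighbours in this order differs by less than the larger of its 2 SDs. By RNA kind, the hnRNP mean was 78.9 in polyA replicates and 68.6 in total RNA replicates, the Snrp mean 59.0 and 65.6, and the Ddx mean 52.0 and 47.7.

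**Figure D1:**
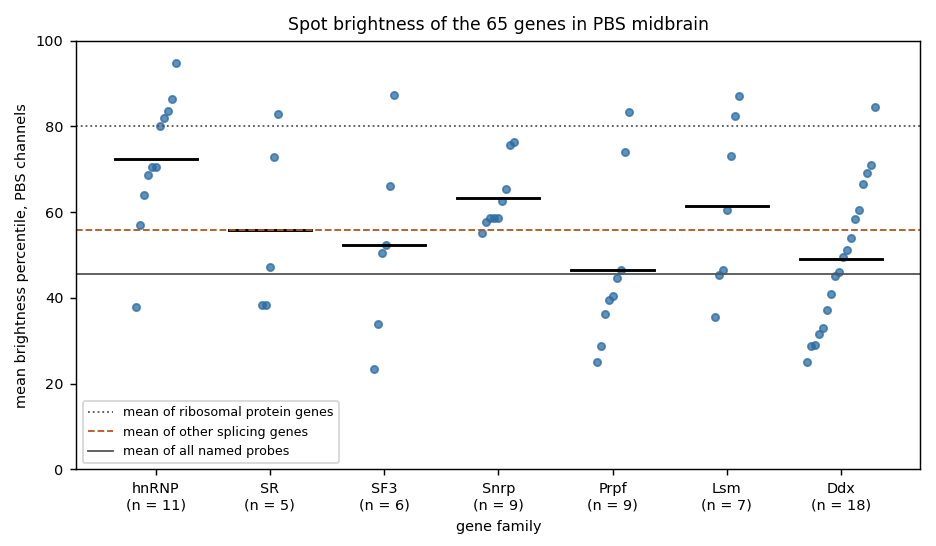
Mean brightness percentile in the PBS channels (vertical axis, over up to 11 replicates) of the 65 genes by family. Points are genes, black bars are family means and horizontal lines are the means of ribosomal protein genes, other splicing genes and all named probes. Of the 11 hnRNP genes 10 lie above 50, as do all 9 Snrp genes, while 2 of the 9 Prpf genes do.

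Among the hnRNP genes, Hnrnpu, whose protein binds RNA and chromatin, had a mean percentile of 94.9 ± 7.7 (SD, n = 11), with a lowest value of 72.5, a median of 97.7 and a highest of 98.8. Hnrnpl, which binds CA-rich RNA, had 86.5 ± 13.7 (from 63.0 to 98.9, median 95.3). The dimmest were Hnrnpll, a paralog of Hnrnpl, at 57.0 ± 19.9 (32.7 to 85.3, median 57.1), and Hnrnpa0 at 38 ± 23.2 (11.4 to 76.1, median 32.6). Hnrnpu was bright in every replicate and had the smallest range of the 65 genes, 26.3 points. The median range over replicates was 59.9 points, and 44 of 65 genes had a range over 50, so single genes are placed only roughly.

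In the SR family Srsf1, the founding member, had 82.9 ± 23.8 and Srsf5 had 72.8 ± 22.2, while Srsf9 and Srsf10 both had 38.3. Of the U2-bound SF3 complexes, Sf3b1, the largest subunit of SF3b, had 87.3 ± 10.9 and Sf3b6, the subunit next to the branch-point adenosine, had 66.1 ± 20.5. Sf3a3 had 34.0 ± 19.2 and Sf3b3 had 23.4 ± 19.4, the lowest mean of the 65. Sf3b1, Sf3b6 and Sf3b3 belong to the same complex, SF3b, while Sf3a3 belongs to SF3a.

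The Snrp genes were the most even family, from 55.2 for Snrpg and 57.6 for Snrpa1, the U2 A' protein, to 75.7 for Snrpd1, a protein of the Sm ring, and 76.4 for Snrpc, the U1 C protein. Among the Prpf genes, Prpf8, the core of the spliceosome's catalytic centre, had 83.3 ± 14.4 and Prpf31, a tri-snRNP protein, had 74.1 ± 19.4. Prpf40b, at 28.8, and Prpf38b, at 25.1, were the dimmest. Lsm6, a member of the ring on U6 RNA, had 87.2 ± 18.6 and Lsm12 had 82.4 ± 14.4, against 45.4 for Lsm14a and 35.7 for Lsm3. Of the helicases, Ddx39b, which acts in spliceosome assembly and mRNA export, had 84.6 ± 11, and Ddx24, a nucleolar helicase, had 70.9 ± 14.3. Ddx59 at 28.9 and Ddx28, a mitochondrial helicase, at 25.2 were the dimmest of that family.

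The order of the 65 genes by brightness was closer within polyA replicates, with a mean Spearman rho over genes of 0.713 in 6 pairs (0.532 to 0.866), than within total RNA replicates, at 0.425 in 21 pairs (0.178 to 0.775). Pairs of one polyA and one total RNA replicate had 0.429 in 28 pairs. Over all probes the same means were 0.593, 0.304 and 0.353. Genes are not independent replicates, and replicates in these pairs share array runs.

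PBS brightness was then compared between the 4 polyA replicates and the 7 total RNA replicates, on log2 intensities set to a common distribution. Labelling of both used oligo dT and random primers, per the labels. limma called 84 of 5913 probes: 74 (1.25%) higher and 10 (0.169%) lower in polyA RNA. Of the 53 genes tested, 1 was called, and it was higher, a share of 1.89%. An unadjusted p under 0.05 was found for 14 of the 53 genes (26.4%), against 905 of all probes (15.3%).

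The gene called was Ddx23, the helicase that exchanges U1 for U6 at the 5' splice site. Its quantile-normalized log2 brightness was 1.31, 1.00, 0.46 and 2.36 in the polyA replicates, against a lowest value of -1.55, a median of -0.59 and a highest of 0.04 in the total RNA replicates. Every polyA replicate was brighter than every total RNA replicate. The difference was 1.89 (SE 0.46, limma adjusted p = 0.035), and as percentiles the means were 79.6 ± 12.1 in polyA RNA and 32.6 ± 14.4 in total RNA (SD, n = 4 and 7). The call was lost in 7 of 11 fits that each left out 1 replicate, with adjusted p between 0.028 and 0.17. The replicates whose loss ended it were 18 h replicates 1 and 2, both 72 h replicates, and 192 h replicates 1, 2 and 4, and the difference lay between 1.41 and 2.15 in these fits. It was also lost with no background subtraction, at 1.44 (adjusted p = 0.082), with PBS in Cy3 only, at 1.24, and with PBS in Cy5 only, at 2.46. In the tumour channels of the same arrays the difference was 1.62 (adjusted p = 0.063). Each polyA replicate has a single dye orientation, so the settings with PBS in Cy3 only or in Cy5 only hold fewer polyA replicates. A loss of the call there is not a measure of a dye effect.

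No other gene of the set passed. Ddx6, a helicase of mRNA decapping, had 1.31, 1.25, 3.16 and 1.79 in polyA replicates, against -1.84 to 1.84 (median 0.08) in total RNA replicates, a difference of 1.63 (SE 0.58, limma adjusted p = 0.17). Ddx20, a helicase of the SMN complex, differed by 1.44 (SE 0.55, adjusted p = 0.21), Hnrnpl by 1.14 (SE 0.48, adjusted p = 0.26) and Snrpd3 by 1.24 (SE 0.53, adjusted p = 0.27). The groups overlapped in each of these 4 genes.

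On the other side, Snrpa1 had -2.0, -0.26, 0.10 and -0.04 in polyA replicates, against -0.43 to 2.23 (median 0.88) in total RNA replicates, a difference of -1.51 (SE 0.54, limma adjusted p = 0.17). Srsf10, an SR protein that represses splicing when dephosphorylated, had -1.17 (SE 0.45, adjusted p = 0.20), Sf3a1 had -1.18 (SE 0.46, adjusted p = 0.21), Lsm7 had -1.14 (SE 0.52, adjusted p = 0.29) and Sf3b6 had -1.11 (SE 0.53, adjusted p = 0.32). Here too the groups overlapped for each gene. Lsm1, named after its values were seen, had -0.85 (SE 0.41, adjusted p = 0.32), with groups that did not overlap. How many of all probes had groups without overlap was not counted, so the lack of overlap in Lsm1 and Ddx23 cannot be weighed. By family, 10 of 12 Ddx and 8 of 10 hnRNP genes had a positive difference and 7 of 9 Snrp genes a negative one, with medians of 0.40, 0.38 and -0.42. Positive differences were also found for 6 of 8 Prpf genes and for 33 of 49 probes of other splicing genes (67.3%, median 0.44), against 47.1% of all probes. The median of the 53 genes was 0.14, against -0.053 for all probes. The median 95% interval reached 1.06 to each side, so differences of that size stay within the error.

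**Figure D2:**
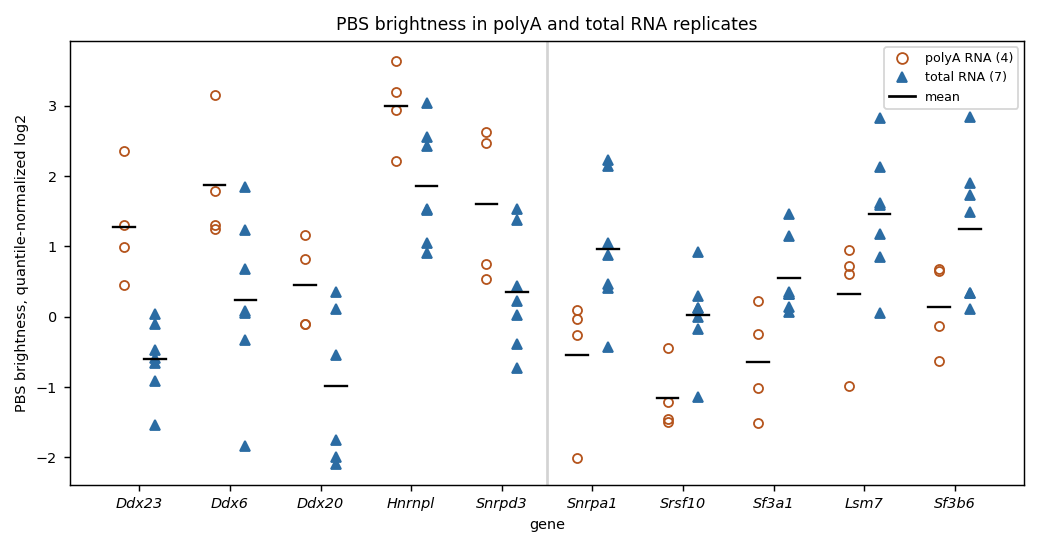
Quantile-normalized log2 brightness in the PBS channels (vertical axis) of the 10 genes named, the 5 with the smallest p in each direction. Open circles are the 4 polyA replicates, triangles the total RNA replicates (7, or 6 for Ddx20), and bars are means. For Ddx23 all circles lie above all triangles.

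The ratios of tumour over PBS could be tested for 47 of the 65 genes: 10 hnRNP, 4 SR, 4 Sf3, 9 Snrp, 5 Prpf, 6 Lsm and 9 Ddx genes. Another 12 genes lay in the dimmest 33.3% of probes and 6 had a value in too few replicates. The filter is on brightness over both channels and on the number of replicates with a value, not on the ratio. The fit covered 4488 probes of 4410 genes, with the 3 times and the dye orientation as terms, and its p-values measure the spread between biological replicates, pooled over the times. Of the 47 genes 30 had a value in all 11 replicates, and 8 of the 65 genes gave a signal on all 21 arrays.

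No gene of the set passed the test at any time, which does not show that none changed. limma called 0 of 4488 probes (0%) for 18 h, 72 h and 192 h, for the mean of the times and for each of the 3 differences between times, and so 0 of 47 genes in each. The lowest adjusted p among the 47 genes was 0.878 for 18 h, 0.548 for 72 h and 1.00 for 192 h. On the log2 scale the 95% interval of a gene reached, in the median, 0.26 to each side for 18 h, 0.38 for 72 h and 0.27 for 192 h, without adjustment for the number of probes. The whole interval lay between -1 and 1 for all 47 genes at 18 h and 192 h, and for 43 of them at 72 h. With the authors' deposited log ratios in place of the scanner files, 18 of 50 ratios of named genes had the opposite sign.

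**Figure D3:**
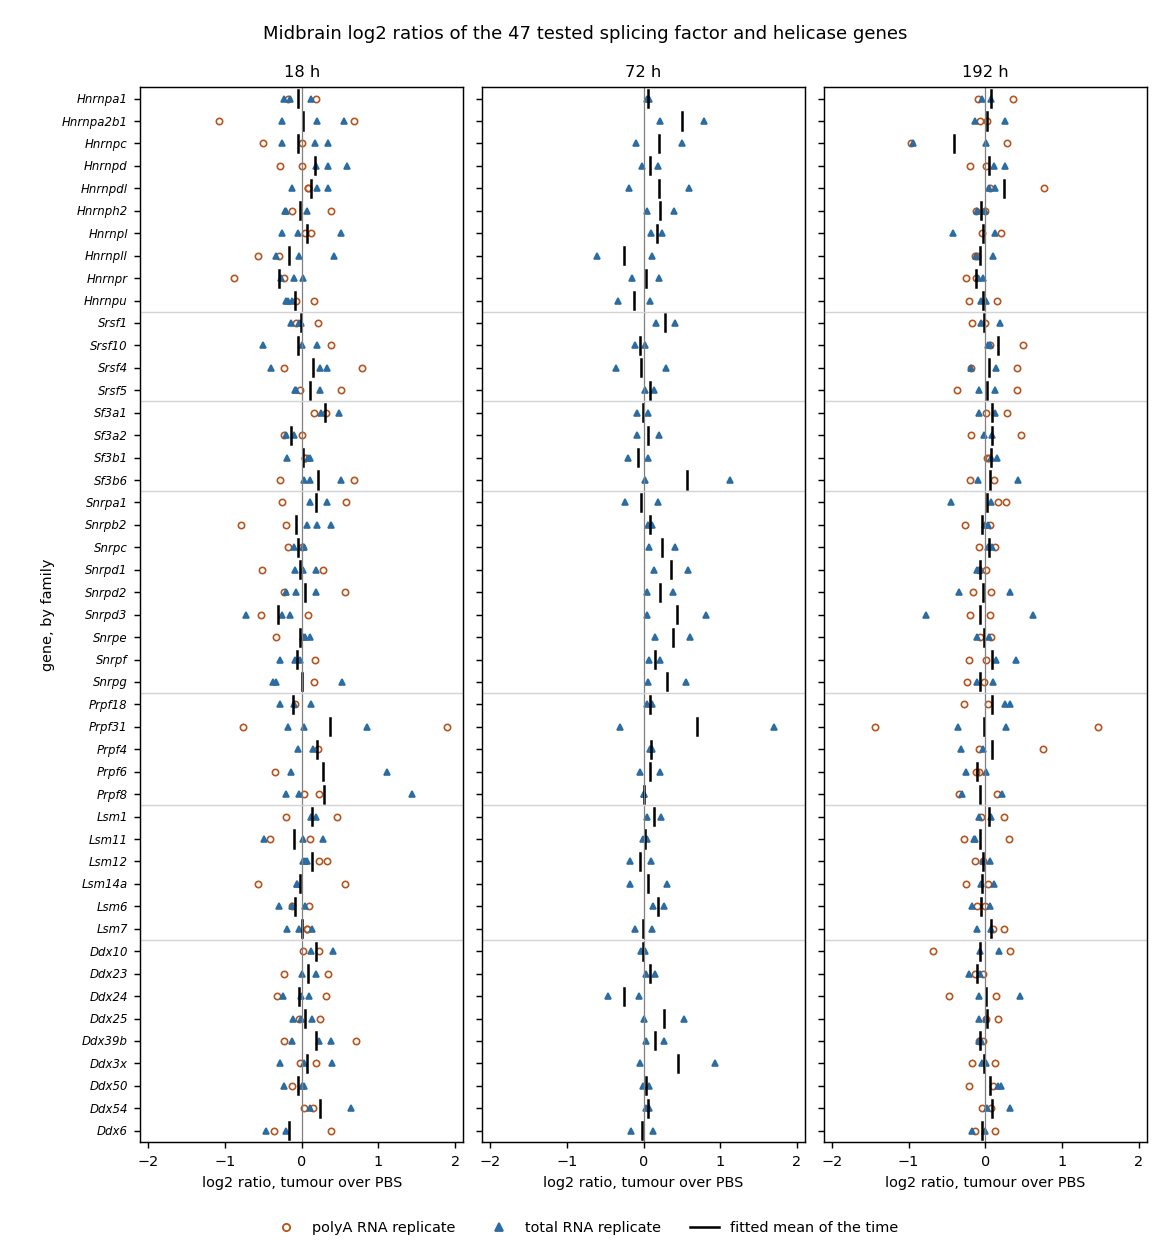
log2 ratio of tumour over PBS (horizontal axis) for each of the 47 tested genes (rows, by family) at 18, 72 and 192 h. Open circles are polyA replicates, triangles total RNA replicates, and black ticks are the fitted means. Most replicate values straddle 0, and the widest spread is that of Prpf31.

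At 18 h 24 of the 47 genes had a fitted ratio above 0, with a median of 0.0073, against -0.00024 for all probes. Of the 47 genes, 2 had an unadjusted p under 0.05, against 5.37% of all probes. Sf3a1, a subunit that joins SF3a to the U2 particle, had 0.32, 0.17, 0.25 and 0.49 in replicates 1, 2, 4 and 5, and no value in replicate 3. All 4 values lay above 0, and the fitted ratio was 0.31 (SE 0.10, limma adjusted p = 0.878, unadjusted p = 0.0084). Hnrnpr, whose protein travels with mRNA in axons, had -0.23, -0.88, 0.02, -0.10 and -0.27 in replicates 1 to 5, below 0 in 4 of 5, with a fitted ratio of -0.29 (SE 0.12, adjusted p = 0.878). In all, 4 of 47 genes (8.51%) had one sign in every replicate, against 10.2% of all probes.

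The next smallest p-values at 18 h belonged to Ddx54, with a fitted ratio of 0.24 (SE 0.12), Ddx39b with 0.19 (SE 0.11) and Snrpd3 with -0.31 (SE 0.18). Within families, the highest and lowest fitted ratios were those of Hnrnpd at 0.17 and Hnrnpr at -0.29, Srsf4 at 0.14 and Srsf10 at -0.046, Sf3a1 at 0.31 and Sf3a2 at -0.13, and Snrpa1 at 0.19 and Snrpd3 at -0.31. Among the others they were Prpf31 at 0.37 and Prpf18 at -0.12, Lsm1 at 0.14 and Lsm11 at -0.096, and Ddx54 at 0.24 and Ddx6 at -0.16. None of these passed the test. The family medians ran from -0.035 for hnRNP to 0.27 for Prpf. By replicate, the Prpf median was -0.22, 0.23, -0.20, -0.045 and 0.86 in replicates 1 to 5, so it had no common sign.

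At 72 h replicates 3 and 4 were used, of 4 replicates in the series. Replicates 1 and 2 were hybridised to arrays numbered below 309 and were not used here. The median ratio of the 47 genes was 0.085, against 0.036 for all probes, and 35 of 47 lay above 0 (74.5%), against 57.2% of all probes. Probes of ribosomal protein genes had a median of 0.078, with 22 of 32 above 0 (68.8%). Those of other splicing genes had a median of 0.00045, with 22 of 43 above 0. The genes above 0 in both replicates were 24, and 1 was below 0 in both. Together these are 53.2%, against 52.5% of all probes. By replicate, the median over the genes was 0.19 in replicate 3, with 36 of 47 above 0, and 0.058 in replicate 4, with 34 of 47 above 0. Over all probes the medians were 0.050 and 0.0064.

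The Snrp genes had the highest median of the 7 families at 72 h, 0.24, with 8 of 9 genes above 0. In replicate 3 their median was 0.41 and 8 of 9 lay above 0, and in replicate 4 it was 0.066 with 9 of 9 above 0. Snrpe, of the Sm ring, had 0.60 and 0.15 (fitted 0.38, SE 0.16, limma adjusted p = 0.548). Snrpd1, also of the ring, had 0.58 and 0.14 (fitted 0.36, SE 0.16), and Snrpd3 had 0.81 and 0.05 (fitted 0.43, SE 0.29). Each was larger in replicate 3, which includes array 447, than in replicate 4.

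The other genes with small p at 72 h were Sf3b6, at 1.12 and 0.02 in replicates 3 and 4 (fitted 0.57, SE 0.24, limma adjusted p = 0.548), Srsf1, at 0.41 and 0.16 (fitted 0.28, SE 0.13), and Ddx3x, a helicase of translation initiation, at 0.94 and -0.04 (fitted 0.45, SE 0.21). An unadjusted p under 0.05 was found for 3 genes, Sf3b6, Snrpe and Snrpd1, against 8.82% of all probes. Hnrnpa2b1 had a fitted ratio of 0.50, Prpf31 of 0.69 and Lsm6 of 0.19, the highest of their families, and the lowest were Hnrnpll at -0.25, Ddx24 at -0.26, Lsm12 at -0.043, Srsf10 at -0.042, Snrpa1 at -0.028, Sf3b1 at -0.072 and Prpf8 at 0.0052. None passed the test.

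Single arrays of 72 h replicate 3 differed. Ddx3x had 1.89 on array 447 and -0.02 on its partner array 445 with the dyes exchanged. Sf3b6 had 1.74 on array 447 and 0.50 on array 445, and Snrpd1 had 1.07 and 0.09. Without array 447 the fitted ratios at 72 h were -0.023 for Ddx3x, 0.091 for Sf3b6, 0.019 for Snrpd1, 0.18 for Snrpe, 0.12 for Srsf1 and -0.10 for Hnrnpa2b1. In the fit without array 447, replicate 3 rests on array 445 alone, with the tumour in Cy5. The dye term then also adjusts replicate 3, so these shifts are not due to the values of array 447 alone. Over the 45 genes with a value in both fits, the median at 72 h was 0.057 without array 447 and 0.086 with it, and 28 genes lay above 0 without it, against 33 with it. The Snrp median was 0.13 without it and 0.24 with it, and the hnRNP median was -0.071 without it and 0.17 with it. Without replicate 4, replicate 3 alone stood for 72 h, and its spread was assumed to be that of the other times. The ratios at 72 h were then 1.69 for Prpf31, 1.12 for Sf3b6 and 0.94 for Ddx3x. In replicate 4 these genes had -0.31, 0.02 and -0.04.

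**Figure D4:**
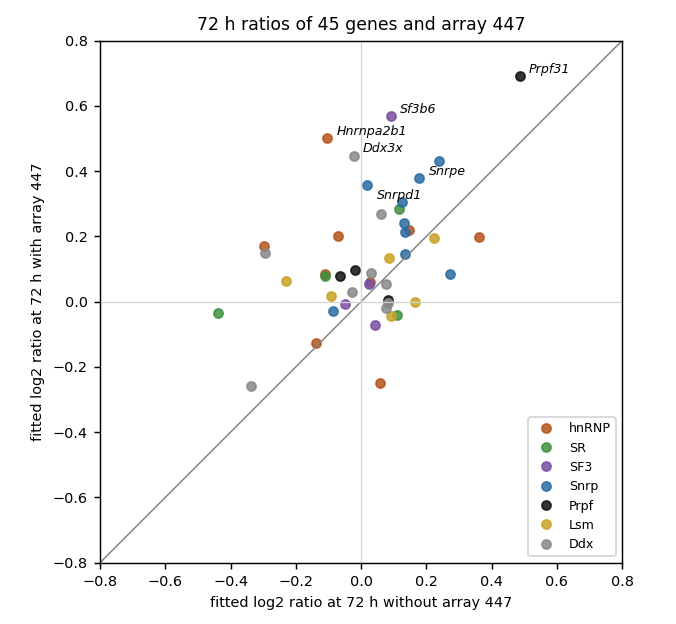
Fitted log2 ratio at 72 h with array 447 (vertical axis) and without it (horizontal axis) for 45 genes, coloured by family. The diagonal marks equal values. Without the array, 72 h replicate 3 has a single dye orientation and the dye term also adjusts it. Sf3b6, Ddx3x, Hnrnpa2b1 and Snrpd1 lie well above the diagonal, at 0.57, 0.45, 0.50 and 0.36 with the array and 0.091, -0.023, -0.10 and 0.019 without it.

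At 192 h 22 of the 47 genes lay above 0 and the median was -0.013, against -0.0037 for all probes. An unadjusted p under 0.05 was found for 1 gene, against 1% of all probes: Hnrnpc, whose protein binds U-rich RNA and represses cryptic exons. It had -0.97, 0.28, 0.01 and -0.94 in replicates 1 to 4, with a fitted ratio of -0.40 (SE 0.17, limma adjusted p = 1.00). Its low values came from replicates 1 and 4, and the other replicates lay at or above 0. Replicate 1 has the tumour in Cy5 only and replicate 2 in Cy3 only. Over arrays of all times, Hnrnpc had a mean of 0.12 with the tumour in Cy3 and -0.35 with it in Cy5. On the arrays of replicate 4 it had -1.58 with the tumour in Cy5 and -0.30 with the tumour in Cy3.

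Hnrnpdl, a paralog of Hnrnpd, had 0.07, 0.76, 0.04 and 0.12 at 192 h, above 0 in all 4 replicates, with a fitted ratio of 0.25 (SE 0.14, limma adjusted p = 1.00). Srsf10 had 0.06, 0.48, 0.03 and 0.06, with a fitted ratio of 0.16 (SE 0.12). In both genes replicate 2 stood far above the rest. Ddx23 had -0.13, -0.04, -0.21 and -0.06, all below 0, with a fitted ratio of -0.11 (SE 0.10), and Hnrnpr had -0.25, -0.13, -0.03 and -0.09, also all below 0, with -0.13 (SE 0.13). One sign in every replicate was found for 6 of 47 genes (12.8%), against 9.43% of all probes.

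The highest ratios of the other families at 192 h were those of Sf3a2 (0.086), Snrpf (0.081), Prpf18 (0.085), Lsm7 (0.078) and Ddx54 (0.092). The lowest were those of Srsf1 (-0.013), Sf3b6 (0.062), Snrpd3 (-0.072), Prpf6 (-0.11) and Lsm11 (-0.067). All but 1 of the 47 fitted ratios at this time were under 0.25 in size, against 41 at 18 h and 36 at 72 h.

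For the mean of the 3 times 38 of 47 genes lay above 0, with a median of 0.056, against 54.2% of probes above 0 and a median of 0.011 over all. The smallest p-values belonged to Sf3b6 (0.28, SE 0.11, limma adjusted p = 0.857), Prpf31 (0.35, SE 0.17), Hnrnpdl (0.19, SE 0.09), Sf3a1 (0.13, SE 0.06) and Ddx3x (0.16, SE 0.10). The mean gives the 72 h value the same weight as the others, so array 447 enters it too. The Snrp median of the difference 72 h minus 18 h was 0.28 and that of 192 h minus 72 h was -0.24, and no gene passed in either.

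The spread of Prpf31 went with the dye. Its ratio was above 0 on all 11 arrays with the tumour sample in Cy3, from 0.19 to 3.29, and on 1 of 9 arrays with the tumour sample in Cy5, from -3.48 to 0.10. The mean was 1.74 with the tumour in Cy3 and -1.18 with it in Cy5, a difference of 2.92. In 18 h replicate 3 it had 2.39 and -2.73, and in 192 h replicate 4 it had 2.78 and -3.48, on arrays of the same samples with the dyes exchanged. The next largest difference was that of Prpf8, 0.66, then Ddx24, -0.57, and the median size over the 47 genes was 0.18. The fitted ratio of Prpf31 with the dye term was 0.37 (SE 0.24) at 18 h, 0.69 (SE 0.37) at 72 h and -0.013 (SE 0.26) at 192 h. The polyA replicates have one dye orientation each, and their values, -0.76 and 1.89 at 18 h and -1.44 and 1.47 at 192 h, followed it.

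**Figure D5:**
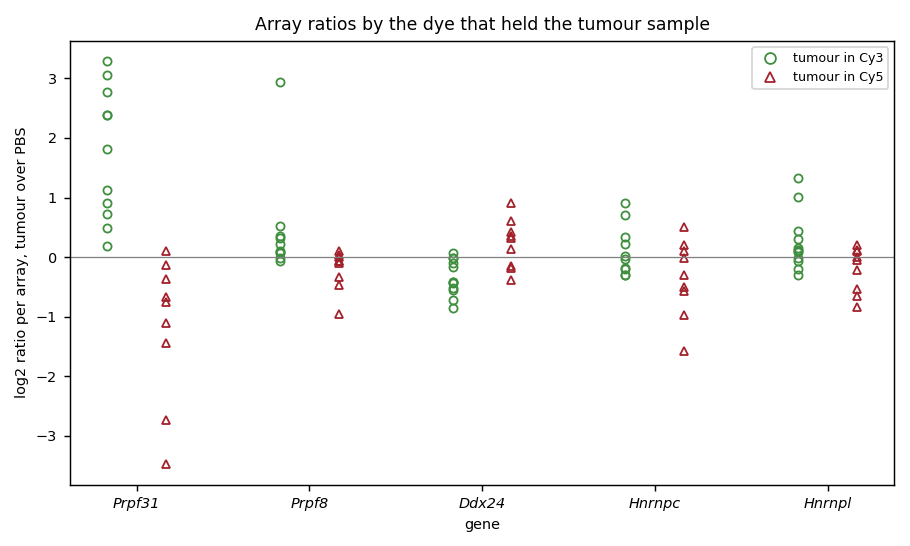
log2 ratio of tumour over PBS on single arrays (vertical axis) for the 5 genes with the largest gap between dye orientations. Circles are arrays with the tumour sample in Cy3 and triangles arrays with it in Cy5. For Prpf31 all circles lie above 0 and all triangles but 1 below it.

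Exchanged dyes gave opposite signs for more genes than the same sign in all 7 replicates with both orientations. The 2 arrays gave the same sign for 9 of 22 genes in 18 h replicate 3, 23 of 47 in replicate 4 and 16 of 38 in replicate 5. At 72 h they did so for 13 of 32 genes in replicate 3 and 9 of 43 in replicate 4, and at 192 h for 19 of 43 in replicate 3 and 15 of 43 in replicate 4. Over all probes the shares were 42.7%, 45.0% and 34.2% at 18 h, 57.7% and 28.8% at 72 h, and 48% and 36% at 192 h. The part of dye effects in any single ratio was not tested beyond the dye term.

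Other genes of the splicing machinery were read from a list of 110 genes, of which 57 were on the arrays and 41 tested, with 43 probes. limma called none of them at any time, with an unadjusted p under 0.05 for 2 probes at 18 h, 2 at 72 h and 0 at 192 h. Their median was 0.0027 for 18 h, 0.00045 for 72 h and 0.019 for 192 h, with 22, 22 and 25 of 43 probes above 0. At 18 h the smallest p-values were those of Celf2, an RNA-binding regulator of neuronal splicing, at -0.33 (SE 0.13), Cdc40, a second-step factor, at -0.30 (SE 0.11) and the cold-inducible Cirbp at 0.23 (SE 0.13). At 72 h U2af1, which reads the 3' splice site, had 1.08 and 0.27 in replicates 3 and 4 (fitted 0.68, SE 0.20, limma adjusted p = 0.529), Ppil1 had -0.58 and -0.42 (fitted -0.50, SE 0.17) and Wbp4 had -0.92 and -0.05 (fitted -0.48, SE 0.25). At 192 h the kinases of SR proteins Srpk2 and Clk4 had 0.23 (SE 0.12) and 0.21 (SE 0.12), and U2af1 had 0.21 (SE 0.14). The other probe of Srpk2 had -0.11, so its probes disagree in sign.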

How the data were processed

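Arrays with 2 colours of printed oligonucleotides were read from the scanner files of 21 arrays, with 10080 spots each. The 7 arrays numbered below 309 were not used, since the genes were defined on the others, the designs on which gene names follow brightness. Per the file headers, the deposited intensities already have the local background subtracted. RNA was extracted with TRIzol, per the labels' protocols. The series matrix holds the authors' log ratios, whose base and method are not given in the sources used here, so these deposited values were treated as a score and used only as an alternative. Channel A was taken as Cy3 and channel B as Cy5, from the sign of their rank correlation with that matrix.

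Each scan was normalized by loess (span 0.3, 4 iterations), scans and spots of an accession were averaged, ratios were turned to tumour over PBS and the arrays of a replicate averaged. Probes in the dimmest 33.3% were not tested, and 3, 2 and 3 replicates were required at 18, 72 and 192 h. limma 3.58.1 in R 4.3.3 was fitted with time and dye terms to all probes, with Benjamini-Hochberg adjustment at 0.05. PBS brightness was quantile normalized between channels for polyA minus total RNA, with at least 3 polyA and 5 total RNA replicates. The tests were checked on simulated data, in which 200 of 4488 probes were given a log2 shift. A shift of 0.5 was recovered for 49.1% of these probes in the 18 h test, 43% in the 192 h test and 0.35% in the 72 h test. For a shift of 1 the shares were 96.75%, 96.3% and 87.65%. The 72 h test could thus rarely find a shift of 0.5. The number of arrays limits the precision. P-values measure the spread between replicates, which may be partly technical.

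Named genes were, per family and time, the highest and lowest ratio; the 5 smallest p per time and over the averaged times; every gene called; the brightest and dimmest 2 per family (1 in families of under 5 measured members); the 5 smallest p for polyA minus total RNA in each direction; and, of other splicing genes, the 3 smallest p at each time. A gene with several probes was given by the probe with the smallest p. Members and lists were chosen with earlier results of these data known. Alternatives covered the background, normalization, dim probes, dye term, arrays, RNA kind, the authors' matrix, left-out replicates and a replicate block.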

Additional observations from a re-analysis of the deposited data

Results flagged for a closer look

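Of 54 groups of replicates checked for a sample far from the others, 3 had one, and 2.7 are expected at 1 in 20. The log2 ratio of Hnrnpdl at 192 h was 0.76 in replicate 2, against 0.043 to 0.12 in the other 3 replicates. That of Srsf10 was 0.48 in the same replicate, against 0.032 to 0.061 in the others. In polyA PBS brightness, Snrpa1 had -2.0 in 18 h replicate 1, against -0.26 to 0.099 in the other 3 polyA replicates.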

How the results depend on the processing

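Of 505 summary values over 26 settings, 453 kept their value or count within the spread. At 72 h the count of probes called, 0, was 2 with no background subtraction, 3 with median centring, 1 with all 28 arrays and 2 with total RNA only. For 192 h minus 72 h it was 1 with no background subtraction and 1 with the replicate block, and 0 otherwise unless a replicate was left out. The median of the genes at 192 h, -0.013, was 0.0062 with median centring, 0.011 with dim probes kept and 0.015 with all 28 arrays. For polyA minus total RNA the 84 calls were 161 with median centring between channels, 151 with spots of no signal at the lowest rank, 1 with PBS in Cy3 only and 0 with PBS in Cy5 only. The genes called there were 0 with no background subtraction, 2 with spots of no signal at the lowest rank, 0 with Cy3 only, 0 with Cy5 only and 0 in the tumour channels, an alternative chosen after seeing the data, as was a dye value per probe. Ddx23 had 1.44 with no background subtraction, 1.24 with Cy3 only, 2.46 with Cy5 only and 1.62 in the tumour channels. The settings with PBS in Cy3 only or Cy5 only hold fewer polyA replicates, so their counts of calls are not like for like. The brightness percentile of the 65 genes was 61.8 with spots of no signal at the lowest rank. The cause of these changes was not tested. With each replicate left out in turn, calls ran from 0 to 1 at 18 h, 0 to 292 at 72 h (0 to 3 of the set), 0 to 154 for the mean of the times (0 to 2), 0 to 192 for 72 h minus 18 h, 0 to 1 for 192 h minus 18 h and 0 to 197 for 192 h minus 72 h (0 to 1). The upper counts for 72 h, the mean of the times and both differences that include 72 h came from the fit without 72 h replicate 4. There replicate 3 alone stood for 72 h, and 49 genes of the set and 4889 probes were tested. Medians of the genes ran from -0.000066 to 0.052 at 18 h, 0.061 to 0.14 at 72 h, -0.014 to 0.036 at 192 h, and 0.031 to 0.076 for the mean of the times. For differences between times they ran from 0.020 to 0.14 (72 h minus 18 h), -0.063 to 0.016 (192 h minus 18 h) and -0.16 to -0.039 (192 h minus 72 h). For polyA minus total RNA calls ran from 37, without 192 h replicate 1, to 107 (0 to 1 of the set), Ddx23 from 1.41 to 2.15, and the brightness percentile from 56.0 to 57.4. Of 1009 ratios of named genes under other settings, 60 changed sign, 18 of them among the 50 from the authors' matrix and at most 6 under any other setting, and 5 passed the threshold, all without 72 h replicate 4. Replicate numbers were not treated as pairing the samples, since not every pair with the same number had a correlation of deviations over 0.1: of 8 pairs 5 did, from -0.12 to 0.33 over all. Pairs with different numbers were not compared. Spots with no signal in one channel have no ratio, which limits the replicates behind the dimmer genes.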
